A study of Danio rerio with 8 samples.

Results

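The genes described are the Wnt ligands, the Frizzled receptors that bind them and a few genes of the same pathway's feedback, in the hindbrain of zebrafish embryos. They were chosen by symbol: every gene whose symbol starts with wnt or fzd and a digit, together with axin2, lef1, dkk1a, dkk1b, sfrp1a, sfrp5 and notum1a, where symbols in capitals that lack the final a or b were counted too. This gave 47 of the 32189 Ensembl gene IDs in the count table. They comprised 26 Wnt ligands, 13 Frizzled receptors and 8 feedback targets or secreted inhibitors. The rule used no measured value, but it was set with earlier results of these data known.

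Wnt ligands are secreted, lipid-modified proteins that bind a Frizzled receptor on the receiving cell. With the co-receptors Lrp5 and Lrp6, some ligands stop the destruction of β-catenin, which then acts in the nucleus with Lef and Tcf proteins. Others act without β-catenin, on cell polarity and movement. In the hindbrain, Wnt ligands are known from the roof plate, from the boundary with the midbrain and, in zebrafish, from the borders between segments.

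The experiment asked which genes of the hindbrain respond when Fgf signalling is switched on. Control embryos (4 libraries, genotype recorded as wt) and embryos with constitutively active fgfr1 (4 libraries, called ca_fgfr1 here) came from 1 heat-shocked clutch of the Tg(hsp70:ca-fgfr1) strain, an outcross in which carriers have 1 copy of the transgene. The hsp70 promoter answers to heat in all tissues, so the active receptor was not limited to the hindbrain. Embryos of both groups, raised at 28.5°C, were given a heat shock of 30 min at 38.5°C when they were 22 hours post-fertilisation (hpf) old, kept for another 2 h at 28.5°C and dissected at 24 to 25 hpf. The groups were told apart by qPCR after RNA extraction. Each library came from the dissected hindbrain and surrounding tissues of a single embryo, so n = 4 embryos per group throughout. In such tissue, fewer cells of a type and less RNA per cell cannot be told apart.

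Total counts were 13173019 to 20541155 per library. Markers of hindbrain progenitors (3 genes) summed to 1213 to 1922 CPM (counts scaled by the size of the library) and those of hindbrain segments (5 genes) to 326 to 542 CPM in all 8 libraries. The midbrain and forebrain markers (2 genes) were at 1.57 to 7.49 CPM. Markers of the Fgf response (10 genes) summed to 301 to 521 CPM in control and 938 to 1742 CPM in ca_fgfr1, with no overlap. Control library 1 stood apart. Its epidermis markers (5 genes, none of them at 0) summed to 23267 CPM against 8260 to 14123 CPM in the other controls, and its neuron markers (2 genes) to 197 CPM against 754 to 898 CPM. Among ca_fgfr1, library 2 had the lowest neuron markers, at 162 CPM against 543 to 568 CPM. The counts of genes by unadjusted p are therefore also given without control library 1, and without both of these libraries.

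None of the Wnt, Frizzled or feedback genes passed the test between the groups. With edgeR's quasi-likelihood test and an adjusted p of 0.05 or less, 0 of the 39 genes with enough counts were called in either direction, and the smallest edgeR adjusted p was 0.293. Of all 18075 genes tested, 9 were called higher in ca_fgfr1 (0.0498%, which is also the share in either direction) and 0 lower (0%). Of the 10 markers of the Fgf response, all with positive log2 fold changes, the same test called only 1, spry2. It did not call etv5b at 3.49-fold (edgeR adjusted p = 0.253) or spry4 at 4.39-fold (edgeR adjusted p = 0.417). The test thus missed large changes, and 0 of the 39 does not show that these genes were unchanged. Under the criteria of the study (adjusted p of 0.01 or less, at least 2-fold, and over 30 normalised counts in every library of a group), 0 of the 39 were called with edgeR, against 0.0166% of all genes higher and 0% lower. The same count was 0 with DESeq2, against 0.22% of all genes. At an adjusted p of 0.05, limma-voom called 0 of the 39, and DESeq2 called 1 of the 41 genes to which it gave an adjusted p, a WNT7A gene that was lower in ca_fgfr1. Over all genes DESeq2 called 0.435%, comprising 0.345% higher and 0.09% lower.

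At an unadjusted edgeR p under 0.05 there were 6 of the 39 genes (15.4%), against 5.34% of all genes tested. They comprised 1 gene higher in ca_fgfr1, against 2.14% of all genes, and 5 lower, against 3.21%. In 5 of the 39 genes the groups did not overlap (12.8%, against 3.34% of all genes). These were 1 gene higher, against 1.9% of all genes, and 4 lower, against 1.44%. Of these genes, wnt2 and a WNT7A gene passed the filter on low counts only through the control libraries, as did WNT6 among the 6, so they could hardly have come out other than lower. The log2 fold change was positive in 14 of the 39 and negative in 25, and 45.9% of all genes were positive. Its median was −0.22, beside −0.04 over all genes tested.

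**Figure D1:**
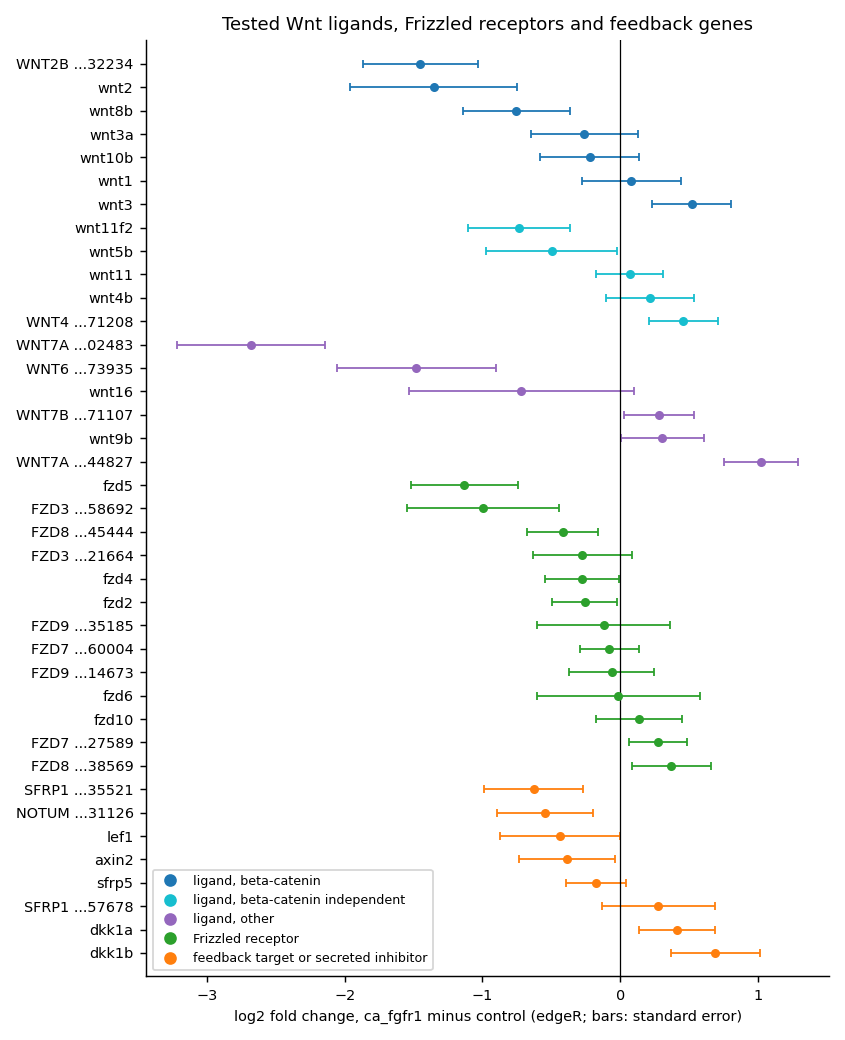
Log2 fold change (ca_fgfr1 minus control, x axis) of the 39 tested Wnt ligands, Frizzled receptors and feedback genes, with bars for the standard error of the edgeR fit over 4 embryos per group and colours for the role of the gene. The values run from −2.68 for WNT7A ENSDARG00000002483 to 1.02 for WNT7A ENSDARG00000044827, 25 of them are below 0 and none passed the edgeR test.

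Control library 1 bore on these counts more than any other library. When it was left out, 13 of the 39 genes had an unadjusted edgeR p under 0.05 (33.3%), and the background rose with them to 26.3% of all genes. The 13 were 5 higher, against 13% of all genes, and 8 lower, against 13.2%. The groups did not overlap in 13 of the 39 as well, against 22.2% of all genes. Still 0 passed the edgeR test, with a smallest edgeR adjusted p of 0.144. DESeq2 without this library called 5 of the 35 genes to which it gave an adjusted p, against 9.61% of all genes. These 5 were WNT2B, fzd5 and an FZD8 gene (lower) and a WNT7A gene and dkk1b (higher). Without control library 1 and ca_fgfr1 library 2, 12 genes had an unadjusted edgeR p under 0.05 (30.8%, against 18%), 6 higher (against 8.76%) and 6 lower (against 9.28%). The groups then did not overlap in 14 genes (35.9%, against 23.9%).

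Among the ligands, the smallest unadjusted edgeR p values were those of 2 genes that the table names WNT7A. In the mouse, Wnt7a and Wnt7b are known for patterning the limb and for the growth of blood vessels into the brain. The level of WNT7A ENSDARG00000044827 was 42.7, 73.3, 89.04 and 83.1 CPM in control libraries 1 to 4, and 181, 137, 112 and 156 CPM in ca_fgfr1 libraries 1 to 4. Every ca_fgfr1 library was above every control, and the level of control library 1 was the lowest of the 8. The means were 72.0 ± 20.6 CPM (SD, n = 4) and 147 ± 29.4 CPM (SD, n = 4). The log2 fold change was 1.02 ± 0.27 (SE), or 2.03-fold, with an edgeR adjusted p of 0.620. Without control library 1 it was smaller, at 0.84 with an SE of 0.20 (edgeR adjusted p = 0.144). DESeq2 gave an adjusted p of 0.0751 for this gene, and 0.0107 without control library 1, where DESeq2 called 9.61% of all genes. It was the only gene of the 47 that was higher in ca_fgfr1 at an unadjusted edgeR p under 0.05, and it made up most of the summed level of the ligands outside the β-catenin and β-catenin-independent lists. That sum was 70.3 to 112 CPM in control and 134 to 203 CPM in ca_fgfr1.

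The other gene, WNT7A ENSDARG00000002483, was low in all libraries and lower in ca_fgfr1. Its levels were 1.78, 1.64, 1.54 and 0.683 CPM in control and 0.286, 0.120, 0.115 and 0.327 CPM in ca_fgfr1. These rest on 19, 24, 30 and 14 counts against 6, 2, 2 and 5 counts. This gene passed the filter on low counts through the control libraries alone, so it could hardly have come out other than lower. The groups did not overlap, and the log2 fold change was −2.68 ± 0.54 (SE), with an edgeR adjusted p of 0.293. DESeq2 gave an adjusted p of 0.0159, and still called it without control library 4, ca_fgfr1 library 1 or ca_fgfr1 library 4, but not without control library 2 or 3 or ca_fgfr1 library 2 or 3. It had no DESeq2 adjusted p without control library 1. The pair share a symbol. Reads that match both genes, whose number was not examined, were divided by estimate, so the separate values are uncertain. The third tested gene of this kind, WNT7B ENSDARG00000071107, was at 18.1, 12.3, 11.1 and 10.4 CPM in control and 13.4, 18.5, 15.1 and 15.9 CPM in ca_fgfr1. Only control library 1 put these groups in overlap, and the log2 fold change was 0.28 ± 0.25 (SE; edgeR adjusted p = 0.892), or 0.47 without that library.

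WNT2B ENSDARG00000032234, wnt2 and WNT6 ENSDARG00000073935 were low in level and lower in ca_fgfr1. In zebrafish, Wnt2-type ligands are known from the mesoderm, where they act in forming the liver, and Wnt6 is known from epithelia such as the surface ectoderm. WNT2B was at 2.72, 2.999, 4.46 and 4.39 CPM in control and 0.668, 1.73, 1.95 and 0.980 CPM in ca_fgfr1. The groups did not overlap, with a log2 fold change of −1.45 with an SE of 0.42 (edgeR adjusted p = 0.751). DESeq2 gave an adjusted p of 0.124 with all 8 libraries and 0.0262 without control library 1, where it called 9.61% of all genes. The level of wnt2 was 1.59, 1.02, 1.08 and 0.781 CPM against 0.0477, 0.538, 0.632 and 0.523 CPM, where the lowest value is 1 count. These groups did not overlap either, with a log2 fold change of −1.35 with an SE of 0.61 (edgeR adjusted p = 0.866). For WNT6 the levels were 2.62, 1.98, 1.69 and 0.732 CPM against 0.286, 0.478, 1.32 and 0.392 CPM. They overlapped through control library 4 and ca_fgfr1 library 3, and the log2 fold change was −1.48 ± 0.58 (SE; edgeR adjusted p = 0.866). Both wnt2 and WNT6 passed the filter on low counts only through the control libraries, so they could hardly have come out other than lower.

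Markers of tissue around the hindbrain varied between libraries, with overlap between the groups in every summed list, and none of these marker genes passed the edgeR test. The mesenchyme markers summed to 517 to 1015 CPM in control and 330 to 566 CPM in ca_fgfr1 (3 genes, of which 2 had negative and 1 a positive log2 fold change, 1 at an unadjusted edgeR p under 0.05). The epidermis markers summed to 8260 to 23267 CPM and 6640 to 12568 CPM (5 genes, all with negative log2 fold changes, 2 at an unadjusted edgeR p under 0.05). In 1 of these 5, tp63, the groups did not overlap (77.6 to 99.3 CPM in control, 39.4 to 59.5 CPM in ca_fgfr1), against 3.34% of all genes. The log2 fold change of tp63 was −0.79 with an SE of 0.21 (edgeR adjusted p = 0.657). Muscle markers (3 of 4 found, all with negative log2 fold changes and an unadjusted edgeR p under 0.05) summed to 144 CPM in control library 4 and to 1.62 to 4.64 CPM in the other 7 libraries. Neural crest markers (4 genes) summed to 99.3 to 177 CPM in control and 94.1 to 160 CPM in ca_fgfr1, vascular markers (4 genes) to 54.0 to 153 CPM and 68.8 to 102 CPM, otic markers (2 genes) to 49.4 to 258 CPM and 107 to 239 CPM, and blood markers (5 IDs) to 3.93 to 270 CPM and 3.35 to 160 CPM. No gene of the latter 4 lists had an unadjusted edgeR p under 0.05, and none of these markers was at 0 in all libraries. The part of these tissues in the levels of WNT2B, wnt2 and WNT6 was not tested.

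**Figure D2:**
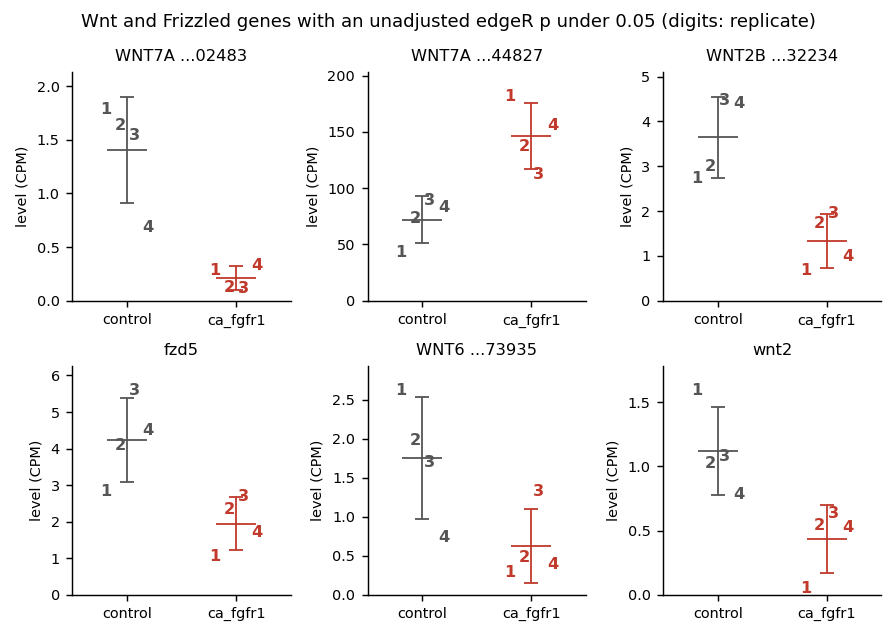
Level in CPM (y axis, from 0) of the Wnt and Frizzled genes with an unadjusted edgeR p under 0.05, in control and ca_fgfr1; digits are the replicates, and the long bars and whiskers the mean and SD of 4 embryos. WNT7A ENSDARG00000044827 lies at 42.7 to 89.04 CPM in control and 112 to 181 CPM in ca_fgfr1, while the other genes lie lower in ca_fgfr1, with overlap only for WNT6.

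The ligands best known for β-catenin signalling in the brain did not move together. These were wnt1 and wnt10b, known from the midbrain-hindbrain boundary and the dorsal midline, wnt3 and wnt3a, known from the dorsal neural tube, and wnt8b, which in zebrafish acts in patterning the brain along its length. The level of wnt1 was 21.4, 17.4, 18.3 and 18.1 CPM in control and 37.8, 16.7, 12.0 and 12.8 CPM in ca_fgfr1. The log2 fold change of wnt1 was 0.08 with an SE of 0.36 (edgeR adjusted p = 0.985), and −0.44 without ca_fgfr1 library 1, since the other 3 ca_fgfr1 libraries were below all controls. The level of wnt10b was 27.2, 17.4, 13.03 and 13.2 CPM against 25.7, 11.2, 10.3 and 13.3 CPM. Its log2 fold change of −0.22 with an SE of 0.36 (edgeR adjusted p = 0.944) became 0.054 without control library 1. So in each group library 1 held the highest wnt1 and wnt10b, and each direction rested on 1 library.

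The libraries with high wnt1 and wnt10b also had the highest sums of dorsal markers, though not of every marker. Markers of the dorsal hindbrain and roof plate (7 IDs, none at 0 in all libraries, 0 at an unadjusted edgeR p under 0.05) summed to 648 CPM in control library 1 and 671 CPM in ca_fgfr1 library 1, against 459 to 574 CPM in the other 6. ZIC2 ENSDARG00000015554 went the other way in control library 1, at 103 CPM against 138 to 142 CPM in the other controls. In ca_fgfr1 library 1, gdf6a was at 27.8 CPM, below the 32.9 CPM of ca_fgfr1 library 2. Control library 2 had the next highest sum, 574 CPM, but the lowest wnt1 of the controls, 17.4 CPM. How much dorsal tissue each dissection held, and its part in these ligands, was not tested. Markers of the midbrain-hindbrain boundary (10 IDs, none at 0 in all libraries) summed to 96.1 to 143 CPM in control and 119 to 153 CPM in ca_fgfr1. Of the 7 tested, 4 had positive and 3 negative log2 fold changes. An unadjusted edgeR p under 0.05 was found for 2 (28.6%), both higher (en1b and EN2), against 2.14% of all genes higher. Of these, EN2 ENSDARG00000038868, an Engrailed transcription factor, was at 2.62, 1.23, 0.718 and 1.123 CPM in control and 3.05, 11.2, 9.77 and 9.21 CPM in ca_fgfr1. Its log2 fold change was 2.57 with an SE of 0.51 (edgeR adjusted p = 0.284), and the DESeq2 adjusted p was 0.00041. Whether en1b and EN2 were higher through more boundary tissue or through the active receptor was not tested. The part of boundary tissue in the levels of these ligands was not tested either.

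The level of wnt3 was 9.18, 8.59, 6.51 and 7.96 CPM in control and 16.0, 7.71, 9.88 and 12.5 CPM in ca_fgfr1, giving a log2 fold change of 0.52 with an SE of 0.29 (edgeR adjusted p = 0.866). Only ca_fgfr1 library 2 lay within the controls. For wnt3a the levels were 9.18, 8.04, 12.9 and 7.17 CPM against 12.8, 3.47, 6.49 and 8.30 CPM, with a log2 fold change of −0.26 with an SE of 0.39 (edgeR adjusted p = 0.939). The highest wnt3a of the ca_fgfr1 group was again in library 1. The level of wnt8b was 4.22, 7.16, 4.87 and 5.22 CPM against 5.25, 1.85, 3.56 and 2.03 CPM. Here 3 ca_fgfr1 libraries lay below all controls and library 1 among them, and the log2 fold change was −0.75 ± 0.39 (SE; edgeR adjusted p = 0.866). Over its 11 IDs, this class of ligands summed to 57.5 to 76.3 CPM in control and 44.4 to 98.9 CPM in ca_fgfr1, with both extremes in ca_fgfr1.

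**Figure D3:**
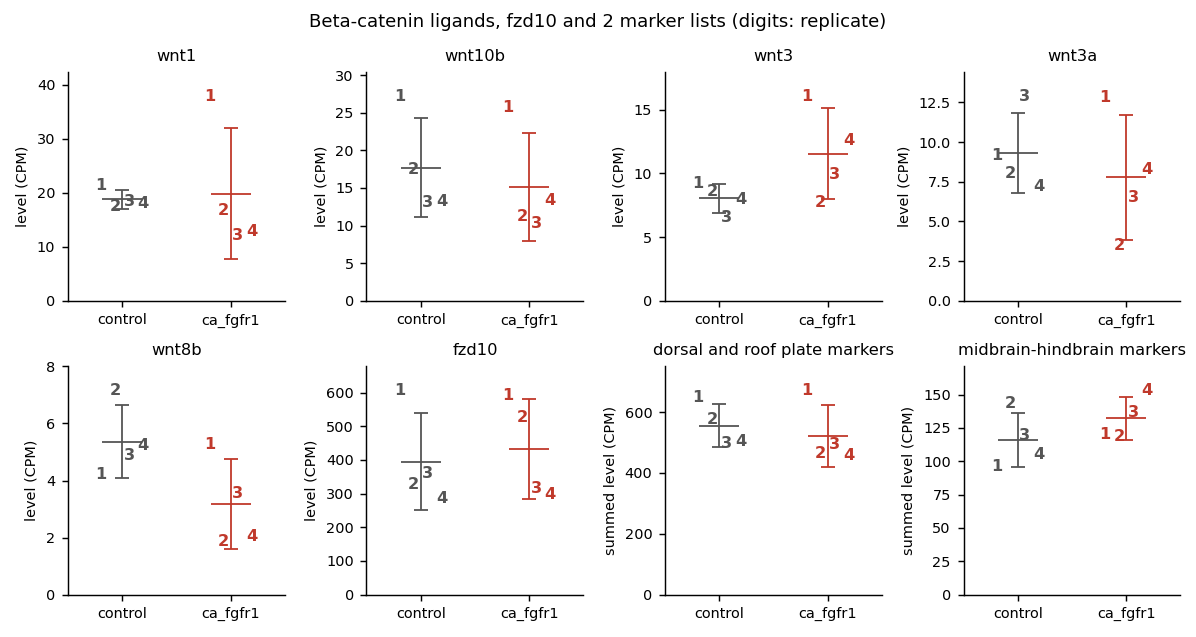
Level in CPM (y axis, from 0) of β-catenin ligands, the receptor gene fzd10 and the sums of 2 marker lists, in control and ca_fgfr1; digits are the replicates, and the long bars and whiskers the mean and SD of 4 embryos. Library 1 of each group has the highest wnt1, wnt10b and fzd10 of its group, and the 2 highest sums of dorsal markers, 648 and 671 CPM.

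The ligands known mostly for β-catenin-independent signalling gave 0 of 5 tested genes at an unadjusted edgeR p under 0.05, against 5.34% of all genes. Without control library 1 there were 2 of 5, WNT4 and wnt4b, against 26.3% of all genes, and the same 2 without that library and ca_fgfr1 library 2, against 18%. The level of wnt11 was 55.1, 51.5, 53.1 and 52.5 CPM in control and 37.3, 61.1, 49.3 and 75.1 CPM in ca_fgfr1. Its mean hardly differed (log2 fold change 0.07 ± 0.24, SE; edgeR adjusted p = 0.977), but the SD was 1.496 CPM in control and 16.2 CPM in ca_fgfr1. The ligand wnt11f2, which in zebrafish drives cell movements of gastrulation, was at 18.3, 12.3, 8.002 and 11.1 CPM against 4.87, 10.8, 9.59 and 4.51 CPM. These levels overlapped, with a log2 fold change of −0.74 with an SE of 0.37 (edgeR adjusted p = 0.866). The level of wnt5b, a ligand of the same movements in zebrafish, was 5.62, 6.95, 12.1 and 13.9 CPM against 2.34, 7.47, 5.46 and 12.2 CPM, with a log2 fold change of −0.50 with an SE of 0.48 (edgeR adjusted p = 0.898). The SD of wnt5b was 3.97 CPM in control and 4.14 CPM in ca_fgfr1, wider than the gap between the means of 9.63 and 6.87 CPM.

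For both Wnt4 genes the values turned on control library 1, and neither passed the test with or without it. Zebrafish wnt4b is known from the floor plate. WNT4 ENSDARG00000071208 was at 25.5, 21.1, 15.2 and 13.6 CPM in control and 26.4, 29.5, 24.7 and 22.7 CPM in ca_fgfr1, with a log2 fold change of 0.46 with an SE of 0.25 (edgeR adjusted p = 0.866). The level of wnt4b was 37.9, 18.2, 16.6 and 14.2 CPM against 23.7, 29.4, 25.9 and 21.7 CPM, with a log2 fold change of 0.22 with an SE of 0.32 (edgeR adjusted p = 0.939). Control library 1 was the highest of its group for both, and the highest of all 8 for wnt4b. Without it the groups did not overlap for either gene, as for 22.2% of all genes, with log2 fold changes of 0.63 ± 0.22 for WNT4 and 0.62 ± 0.20 for wnt4b (SE; edgeR adjusted p = 0.144 for each). DESeq2 gave adjusted p values of 0.0633 and 0.0508 without that library, and 0.849 and 0.985 with all 8 libraries.

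Of the remaining ligands, wnt9b, which in the mouse acts in forming kidney tubules, was at 4.78, 4.36, 5.39 and 3.71 CPM in control and 5.20, 5.38, 4.14 and 7.84 CPM in ca_fgfr1 (log2 fold change 0.31 ± 0.30, SE; edgeR adjusted p = 0.905). The level of wnt16, known in zebrafish for a role in making blood stem cells, ranged from 0 to 5.79 CPM in control and from 1.11 to 2.53 CPM in ca_fgfr1. Both extremes of wnt16 were in controls, with 0 counts in control library 1 and 85 in control library 2. Its log2 fold change of −0.72 with an SE of 0.81 (edgeR adjusted p = 0.919) became 0.012 without control library 2. The other 8 ligand genes had too few counts to test, namely wnt10a, wnt2ba, wnt5a, wnt6a, wnt7ba, wnt9a and 2 IDs named WNT8A. Their largest count was 23, in the ca_fgfr1 library 4 for wnt10a, and their totals over the 8 libraries were 3 to 79 counts. The groups were not compared for these genes.

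All 13 Frizzled receptor genes had enough counts to test. Only fzd5 had an unadjusted edgeR p under 0.05, which is 1 of 13 (7.69%, against 5.34% of all genes), and it was also the only one whose groups did not overlap. Leaving out control library 1 gave 4 of 13, all lower (fzd2, fzd5, FZD3 ENSDARG00000058692 and FZD8 ENSDARG00000045444), against 26.3% of all genes, and the same 4 without that library and ca_fgfr1 library 2, against 18%. The levels of fzd5 were 2.81, 4.09, 5.59 and 4.49 CPM in control and 1.05, 2.33, 2.70 and 1.70 CPM in ca_fgfr1. The highest ca_fgfr1 library thus lay just under the lowest control, which was control library 1. Known for its part in forming the eye, fzd5 had a log2 fold change of −1.13 with an SE of 0.39 (edgeR adjusted p = 0.866). DESeq2 gave an adjusted p of 0.334 with all 8 libraries and 0.0358 without control library 1, where it called 9.61% of all genes. The largest log2 fold change after that of fzd5 was in FZD3 ENSDARG00000058692, at −0.996 with an SE of 0.55 (edgeR adjusted p = 0.866). The levels of this gene ranged from 0.843 to 5.71 CPM in control and 0.718 to 2.48 CPM in ca_fgfr1. In the mouse, Frizzled-3 guides axons.

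The genes with the most counts among the receptors were fzd10, known from the dorsal neural tube, and the pair of FZD7 genes, which in zebrafish act in gastrulation. The level of fzd10 was 607, 328, 359 and 284 CPM in control and 591, 526, 316 and 299 CPM in ca_fgfr1. As with wnt1 and wnt10b, library 1 was the highest of each group, and the log2 fold change of 0.13 with an SE of 0.31 (edgeR adjusted p = 0.969) became −0.050 without ca_fgfr1 library 1. FZD7 ENSDARG00000060004 was at 332, 409, 515 and 520 CPM against 491, 423, 413 and 356 CPM, with a log2 fold change of −0.08 with an SE of 0.22 (edgeR adjusted p = 0.974). FZD7 ENSDARG00000027589 was at 225, 192, 217 and 203 CPM against 283, 316, 211 and 203 CPM, with a log2 fold change of 0.28 with an SE of 0.21 (edgeR adjusted p = 0.876). Neither pair of groups separated. Reads that match both genes, whose number was not examined, were divided by estimate and possibly wrongly.

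FZD8 ENSDARG00000045444 and fzd2 behaved alike across the controls. FZD8 ENSDARG00000045444 was at 91.5, 182, 194 and 169 CPM in control and 104, 116, 144 and 113 CPM in ca_fgfr1, and its log2 fold change was −0.42 ± 0.26 (SE; edgeR adjusted p = 0.866). The level of fzd2 was 52.7, 91.1, 92.2 and 98.8 CPM against 73.8, 62.7, 75.1 and 68.3 CPM, with a log2 fold change of −0.26 with an SE of 0.24 (edgeR adjusted p = 0.892). In both, control library 1 was the lowest of all 8 and the other 3 controls were above every ca_fgfr1 library. Without control library 1 the log2 fold change of this FZD8 gene was −0.61 with an SE of 0.17 (edgeR adjusted p = 0.144). That of fzd2 was −0.43 with an SE of 0.16 (edgeR adjusted p = 0.148). The DESeq2 adjusted p values were 0.0340 and 0.0834 without that library, and 0.868 and 0.940 with all 8 libraries. Without that library DESeq2 called 9.61% of all genes. The other gene of the symbol, FZD8 ENSDARG00000038569, was at 4.50, 4.09, 5.08 and 5.71 CPM against 5.15, 5.50, 6.03 and 8.43 CPM (log2 fold change 0.37 ± 0.29, SE; edgeR adjusted p = 0.877).

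The remaining receptors overlapped widely. FZD3 ENSDARG00000021664 was at 23.8, 32.6, 67.7 and 62.0 CPM in control and 48.8, 30.6, 47.2 and 27.4 CPM in ca_fgfr1 (log2 fold change −0.28 ± 0.36, SE; edgeR adjusted p = 0.930). The level of fzd4, which in mammals is also the receptor for Norrin in retinal vessels, was 11.1, 14.7, 21.1 and 20.5 CPM against 13.03, 11.7, 16.9 and 14.1 CPM (log2 fold change −0.28 ± 0.27, SE; edgeR adjusted p = 0.902). For FZD9 ENSDARG00000014673 the levels were 38.0, 67.7, 84.4 and 81.4 CPM against 92.7, 69.2, 47.3 and 51.0 CPM (log2 fold change −0.06 ± 0.31, SE; edgeR adjusted p = 0.986). The lowest control of these 3 genes was control library 1 in each case. The level of fzd6, known in the mouse for the alignment of hairs, was 1.78, 2.59, 3.85 and 10.2 CPM against 7.30, 3.65, 1.49 and 5.95 CPM. Its log2 fold change of −0.01 with an SE of 0.59 (edgeR adjusted p = 0.998) became 0.72 without control library 4. FZD9 ENSDARG00000035185 stayed between 0.564 and 1.69 CPM in all 8 libraries (log2 fold change −0.12 ± 0.48, SE; edgeR adjusted p = 0.982).

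**Figure D4:**
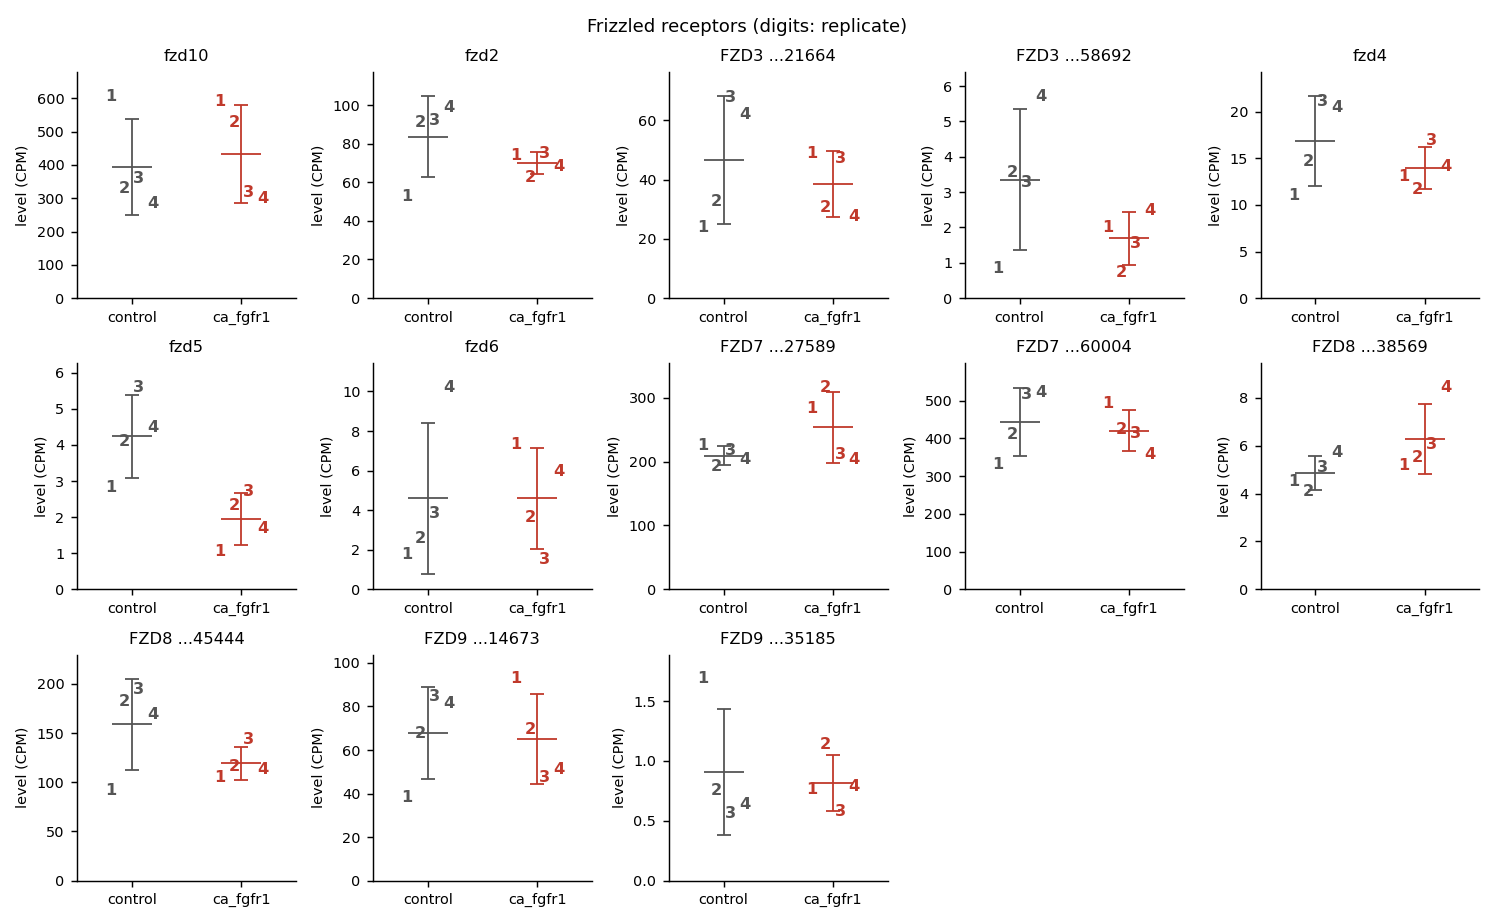
Level in CPM (y axis, from 0) of the Frizzled receptor genes in control and ca_fgfr1; digits are the replicates, and the long bars and whiskers the mean and SD of 4 embryos. Only fzd5 has groups that do not overlap (2.81 to 5.59 CPM in control and 1.05 to 2.70 CPM in ca_fgfr1), and control library 1 is the lowest of all 8 for fzd2 (52.7 CPM) and for FZD8 ENSDARG00000045444 (91.5 CPM).

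The feedback genes report on the pathway from within. Axin2 is a scaffold of the complex that destroys β-catenin, and its gene is a widely used β-catenin target, as is lef1, which encodes a partner of β-catenin on DNA. Neither they nor the secreted inhibitors had an unadjusted edgeR p under 0.05 (0 of 8, against 5.34% of all genes). Without control library 1 there were 2 of 8, dkk1b higher and SFRP1 ENSDARG00000035521 lower, against 26.3% of all genes, and without that library and ca_fgfr1 library 2 there were 2 of 8, dkk1a and dkk1b, against 18%. The level of axin2 was 59.9, 93.0, 169 and 138 CPM in control and 136, 72.6, 78.5 and 64.6 CPM in ca_fgfr1. Controls alone spanned the whole range of axin2, whose log2 fold change was −0.39 ± 0.35 (SE; edgeR adjusted p = 0.890). The level of lef1 was 7.21, 25.8, 16.8 and 14.2 CPM against 18.0, 5.44, 14.5 and 9.28 CPM, with a log2 fold change of −0.44 with an SE of 0.43 (edgeR adjusted p = 0.905). Control library 1 and ca_fgfr1 library 2, the pair with few neuron markers, had the least lef1 of their groups.

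NOTUM ENSDARG00000031126, an enzyme that removes the lipid from Wnt ligands, was at 19.8, 21.4, 38.9 and 36.2 CPM in control and 29.9, 22.2, 16.7 and 10.9 CPM in ca_fgfr1, with a log2 fold change of −0.55 with an SE of 0.35 (edgeR adjusted p = 0.866). In both axin2 and NOTUM, control libraries 3 and 4 were above all ca_fgfr1 libraries, and ca_fgfr1 library 1 was the highest of its group. The Sfrp proteins bind Wnt ligands outside the cell. SFRP1 ENSDARG00000035521 was at 19.95, 27.9, 33.2 and 39.3 CPM against 27.1, 14.1, 27.1 and 9.54 CPM (log2 fold change −0.63 ± 0.36, SE; edgeR adjusted p = 0.866). SFRP1 ENSDARG00000057678 was at 3.56, 1.4995, 2.56 and 1.56 CPM against 2.195, 2.63, 2.01 and 4.25 CPM (log2 fold change 0.28 ± 0.41, SE; edgeR adjusted p = 0.939). The symbol does not say which of them is sfrp1a. The level of sfrp5 was 55.7, 39.9, 36.9 and 45.5 CPM against 37.9, 45.3, 36.0 and 38.4 CPM (log2 fold change −0.18 ± 0.22, SE; edgeR adjusted p = 0.926).

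Dkk1 proteins block the co-receptors Lrp5 and Lrp6, and both genes had higher means in ca_fgfr1. The level of dkk1b was 46.9, 26.4, 28.8 and 26.1 CPM in control and 25.8, 53.7, 60.0 and 67.7 CPM in ca_fgfr1. Control library 1 lay far above the other 3 controls and ca_fgfr1 library 1 below all other libraries. Without ca_fgfr1 library 1 the groups would not overlap, but the share of all genes that separate without it was not counted. The log2 fold change of dkk1b was 0.69 with an SE of 0.33 (edgeR adjusted p = 0.866). Without control library 1 it was 0.93 with an SE of 0.30 (edgeR adjusted p = 0.144). The DESeq2 adjusted p was 0.771 with all 8 libraries and 0.0395 without control library 1, where DESeq2 called 9.61% of all genes. The level of dkk1a was 6.65, 4.09, 5.59 and 4.59 CPM against 8.02, 5.92, 6.78 and 7.12 CPM, with a log2 fold change of 0.41 with an SE of 0.28 (edgeR adjusted p = 0.866). For dkk1a only control library 1 was above any ca_fgfr1 library.

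**Figure D5:**
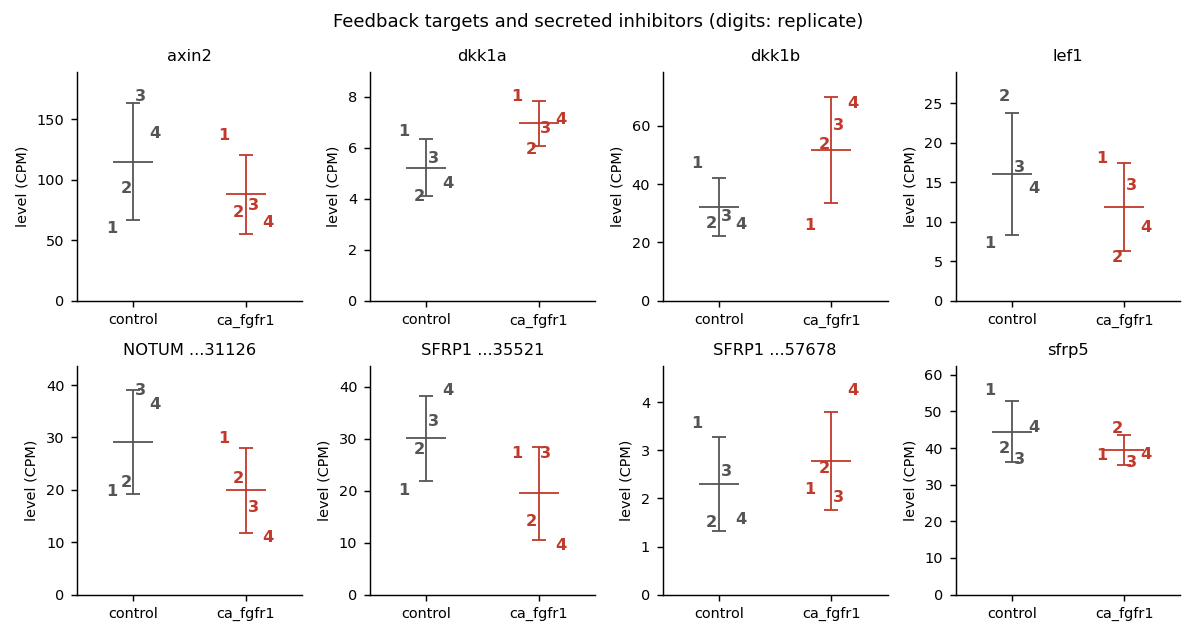
Level in CPM (y axis, from 0) of the 8 feedback targets and secreted inhibitors in control and ca_fgfr1; digits are the replicates, and the long bars and whiskers the mean and SD of 4 embryos. The groups overlap in every panel, and for dkk1b the overlap comes from ca_fgfr1 library 1 (25.8 CPM), with the other ca_fgfr1 libraries at 53.7 to 67.7 CPM.

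Among 76 further genes of the pathway, 71 IDs were found and 64 could be tested, and 0 of these passed the edgeR test (smallest edgeR adjusted p 0.330). At an unadjusted edgeR p under 0.05 there were 11 of 64 (17.2%, against 5.34% of all genes), 2 of them higher (against 2.14%) and 9 lower in ca_fgfr1 (against 3.21%). There were 36 of 65 without control library 1, against 26.3% of all genes, and without that library and ca_fgfr1 library 2 there were 27 of 65, against 18%. DESeq2 called 1 of these genes and limma-voom 0. The log2 fold change was positive in 13 of 64, against 45.9% of all genes, and negative in 51, with a median of −0.46 beside −0.04 over all genes tested. By list, the median was −0.24 for secretion and co-receptors (16 tested) and −0.49 for the β-catenin core (19 tested). It was −0.03 for other targets and secreted inhibitors (15 tested) and −0.71 for planar cell polarity, where all 14 tested genes were negative. The groups did not overlap in 2 of these 14 (14.3%, against 3.34% of all genes). In these 14, the SD was a median 47.0% of the mean in control and 24.6% in ca_fgfr1, against 36.7% and 25.4% over all genes. The 14 were measured in the same 8 embryos, so their signs are not independent of each other. In vangl2, scrib and celsr2, control libraries 3 and 4 were the highest of all 8. Control library 1 lay among or below the ca_fgfr1 libraries in these examples. How many of the 14 had this pattern was not counted.

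The 2 higher genes are drivers of growth and division that are often listed as β-catenin targets. The level of MYC ENSDARG00000045695 was 7.87, 16.2, 10.9 and 8.54 CPM in control and 25.5, 21.05, 40.04 and 42.8 CPM in ca_fgfr1, without overlap. Its log2 fold change was 1.57 ± 0.33 (SE; edgeR adjusted p = 0.330), and it was the gene that DESeq2 called (adjusted p = 0.00440). The symbol covers 2 IDs, so which of the zebrafish copies this is remains uncertain. The level of ccnd1, which encodes cyclin D1, was 423, 474, 419 and 295 CPM against 817, 838, 644 and 641 CPM. Again the groups did not overlap, and the log2 fold change was 0.87 ± 0.22 (SE; edgeR adjusted p = 0.540; DESeq2 adjusted p = 0.0600).

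Of the 9 lower genes, 4 belong to the β-catenin core: DVL3 ENSDARG00000103462, which relays the signal from Frizzled (log2 fold change −1.09 ± 0.36, SE), ctnnb2, a β-catenin (−0.82 ± 0.34), pygo2, a nuclear co-factor (−0.76 ± 0.33), and TCF7L1, a partner of β-catenin on DNA (−0.70 ± 0.32). Their groups overlapped in each case, with an edgeR adjusted p of 0.866 for each. Another 3 belong to planar cell polarity. The level of prickle3 was 2.25 to 3.07 CPM in control and 1.11 to 1.61 CPM in ca_fgfr1 without overlap (log2 fold change −1.05 ± 0.33, SE; edgeR adjusted p = 0.866). DAAM1 ENSDARG00000015059, a formin that acts on actin, was at 16.8 to 29.7 CPM and 11.4 to 15.8 CPM, also without overlap (log2 fold change −0.82 ± 0.27, SE; edgeR adjusted p = 0.866), and PRICKLE2 ENSDARG00000037593 had a log2 fold change of −0.95 with an SE of 0.29 (edgeR adjusted p = 0.789). The last 2 were ryk, a Wnt receptor of another family (log2 fold change −0.65 with an SE of 0.26, edgeR adjusted p = 0.866), and apcdd1l, which is related to a Wnt inhibitor. The level of apcdd1l was 5.34, 10.4, 7.28 and 6.69 CPM against 2.195, 2.81, 2.76 and 4.97 CPM, without overlap (log2 fold change −1.23 ± 0.35, SE; edgeR adjusted p = 0.751). DVL1 ENSDARG00000010515 was below the filter and not tested with edgeR. Its levels did not overlap, at 0.513 to 0.750 CPM in control and 0.0954 to 0.239 CPM in ca_fgfr1. They rest on 6, 11, 10 and 13 counts against 2, 4, 2 and 3 counts. The share of genes without overlap was taken over tested genes only, so it does not cover this gene.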

How the data were processed

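RNA of 8 single hindbrain dissections (4 control, 4 ca_fgfr1) was amplified as cDNA and sequenced as single-end reads. Per the submitters' processing notes and the study's methods, reads were aligned to GRCz10 with STAR 2.5.1b and counted with RSEM 1.2.31. The deposited values are expected counts (estimated counts) per gene, rounded to whole numbers by the authors and not scaled for depth. RSEM divides reads that match several genes, so values of close paralogues are uncertain, and whether strand was used is not given in the sources used here. Column names were read as C for control and F for ca_fgfr1, with the number as the replicate, and 0 columns of values were left unused. Symbols came from a gene name table, which named 26350 of 32189 IDs. Of the 47 genes, 37 carry a capital symbol and 14 share theirs with another ID; those printed in capitals are given with their ID. A genome was not used here, so no coordinates or lengths are given. Levels are not scaled for gene length, which limits every sum or ranking of levels across genes.

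Tests used edgeR 4.0.16 in R 4.3.3 (TMM scaling, quasi-likelihood F-test, no covariate, Benjamini-Hochberg adjustment over all genes tested). The default filter asks for about 10 counts at the median depth in at least 4 libraries and kept 18075 genes, 39 of the 47. In 35 of the 39, all 8 libraries reached that level. CPM are scaled by TMM. The common coefficient of biological variation was 0.398. Standard errors were taken as the size of a log2 fold change over the root of its F statistic. The script was tested on simulated data. Alternatives were other scalings (relative log expression, upper quartile, library totals), no filter or at least 5 CPM in 4 libraries, DESeq2 1.42.0, limma-voom (limma 3.58.1), other edgeR fits, the replicate number as a block and leaving out libraries. No pair of libraries was alike enough to be repeats of 1 library.

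The genes, the pathway lists and the tests were chosen with earlier results of these data known. Any of the 47 genes could be named. Genes with over 30 normalised counts in every library of a group, with an unadjusted edgeR p under 0.05 or with groups that did not overlap were given in every library, and other genes by range. Pathway genes were named where their unadjusted edgeR p was under 0.05 or their groups did not overlap. In addition, vangl2, scrib and celsr2 were named as examples of a spread among the controls.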

Additional observations from a re-analysis of the deposited data

Results flagged for a closer look

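Among 78 groups of 4 libraries (39 genes in each of the 2 groups), 4 had 1 library far from the other 3. Chance alone gives about 1 in 20 such groups, or 3.9 of 78. All 4 cases fell in control library 1. It had the highest wnt4b of the controls, at 37.9 CPM with the next at 18.2 CPM, and the highest dkk1b, at 46.9 CPM with the next at 28.8 CPM. It also had the lowest fzd2, at 52.7 CPM with the next at 91.1 CPM, and the highest FZD9 ENSDARG00000035185, at 1.69 CPM with the next at 0.750 CPM. The cause was not tested.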

How the results depend on the processing

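With edgeR, 0 of the 47 genes and 0 of the pathway genes were called under every scaling, filter and left-out library tried; limma-voom also called 0. DESeq2 called 1 of the 47 genes (WNT7A ENSDARG00000002483) and 1 pathway gene (MYC ENSDARG00000045695), and at an unadjusted edgeR p under 0.05 there were 6 of the 47. With 1 library left out, an alternative chosen after seeing the data, DESeq2 called 0 to 5. Over the whole series edgeR called 9 genes, 14 with no filter, 1 to 13 with 1 library left out, and DESeq2 called 87. Deviations of libraries with the same replicate number had correlations of −0.293, −0.0132, 0.22 and 0.194 for numbers 1 to 4. The ca_fgfr1 libraries 3 and 4 were closest to the control of their own number, while no control was closest to its own. These values cannot decide whether the numbers pair the embryos. With the replicate block, edgeR called 0 of the 47 genes and 2 of the series, and DESeq2 with the replicate block, also chosen after seeing the data, called 0 of the 47.

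Directions turned for 9 genes, whose log2 fold changes lay between −0.72 and 0.28. For wnt1 (0.08) it was −0.063 with limma-voom, −0.087 with the replicate block and −0.44 to 0.23 with 1 library left out (−0.44 without ca_fgfr1 library 1). For wnt10b (−0.22) it was −0.60 to 0.054 with 1 library left out (0.054 without control library 1) and 0.18 without control library 1 and ca_fgfr1 library 2. With 1 library left out it was −0.14 to 0.22 for wnt11 (below 0 without ca_fgfr1 library 4), −0.050 to 0.41 for fzd10 (below 0 without ca_fgfr1 library 1) and −0.033 to 0.56 for SFRP1 ENSDARG00000057678 (below 0 without ca_fgfr1 library 4). For wnt16 it was 0.24 with limma-voom and −1.12 to 0.012 with 1 library left out (above 0 without control library 2). For fzd6 (−0.01) it was 0.018 with no filter, 0.017 with limma-voom, 0.052 with the replicate block and −0.33 to 0.72 with 1 library left out, above 0 without control library 4, ca_fgfr1 library 2 or ca_fgfr1 library 3. For FZD9 ENSDARG00000014673 (−0.06) it was −0.28 to 0.045, above 0 without control library 3 or 4 or ca_fgfr1 library 3 or 4. For FZD9 ENSDARG00000035185 (−0.12) it was 0.018 with limma-voom, −0.34 to 0.32 with 1 library left out (above 0 without control library 1) and 0.13 without control library 1 and ca_fgfr1 library 2. The cause was not tested. Depth limits what can be said of the lowest tested genes, such as wnt2 and WNT7A ENSDARG00000002483, with 1 to 30 counts a library.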

Other observations

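Over the 39 tested genes, control library 1 held the highest level of all 8 libraries in 9 genes and the lowest in 9. Control library 3 was highest in 8 and lowest in 2, and ca_fgfr1 library 1 was highest in 5 and lowest in 7, while ca_fgfr1 library 3 was highest in 0. The summed level of all 26 ligands was 264 to 289 CPM in control and 295 to 397 CPM in ca_fgfr1, without overlap. Of the 18 ligands tested, 8 had positive and 10 negative log2 fold changes. WNT7A ENSDARG00000044827 alone contributed 42.7 to 89.04 CPM and 112 to 181 CPM to the summed level. Without this gene, the sums of the groups overlapped. By class, only the ligands listed with this gene did not overlap (70.3 to 112 CPM and 134 to 203 CPM). Sums overlapped for the β-catenin ligands (57.5 to 76.3 CPM and 44.4 to 98.9 CPM) and the β-catenin-independent ligands (105 to 142 CPM and 94.6 to 138 CPM). The Frizzled receptor genes summed to 1332 to 1569 CPM in control and 1151 to 1715 CPM in ca_fgfr1, with the highest and the lowest sum both in ca_fgfr1.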
